A study of Homo sapiens with 7 samples.

Results

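Nucleosomes with H3K4me3, H3K9ac and H3K27ac together, and neither H3K27me3 nor H3K9me3, were examined in HepG2 cells, far from the ends of named loci. Such nucleosomes are called trivalent here, and a trivalent position was called distal if its midpoint was more than 10 kb from both ends of every locus that has a gene symbol in the expression table. The rule took 9734 of the 42763 trivalent positions, or 22.8% (95% interval 22.4 to 23.2), out of 14217405 listed nucleosome positions, of which 11714458 were distal in the same sense. HepG2 is an established human liver cancer cell line that keeps many functions of hepatocytes. The study mapped freshly cultured HepG2 cells with 1 sample per assay, namely native MNase-Seq for nucleosome positions, ChIP-Seq of 5 histone marks, and RNA-Seq with 2 value columns, called run 1 and run 2 here. No treatment is named in the labels, and coordinates are in hg19 as listed. There were no replicates and no groups of samples, so no P value was computed. Shares are given with exact Clopper-Pearson 95% intervals, which cover counting error only and are too narrow, because neighbouring positions are not independent.

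H3K4me3 is the trimethylation of histone H3 that marks the start of active genes, and acetylation of H3 at lysine 9 and lysine 27 loosens the contact of histones with DNA at active starts. H3K27ac is also found at enhancers, which act on genes from a distance and are usually poor in H3K4me3. H3K27me3 is laid down by Polycomb proteins at silent developmental genes, and H3K9me3 marks heterochromatin, so the 5 marks separate active from silent chromatin. All 12 hepatocyte markers checked, among them ALB, AFP and HNF4A, had a mean FPKM (fragments scaled to transcript length and library size) of at least 1, with values from 13.99 to 10011. Of 13 markers of other cell types, 4 reached an FPKM of 1, the highest being the actin gene ACTA2 at 33.9, and the leukocyte genes PTPRC and CD3E were listed at 0. The depth behind a single position or peak is unknown, because the lists hold coordinates without read counts.

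Trivalent positions became rarer with distance from named loci, much faster than positions with H3K27ac as the only mark. Within 2 kb of a named locus end, 26296 of 608337 positions were trivalent, or 4.32% (4.27 to 4.37). Among distal positions the share was 0.0831% (0.0815 to 0.0848). It went on falling inside the distal zone, from 0.194% at 10 to 20 kb to 0.140% at 20 to 50 kb, 0.0710% at 50 to 100 kb and 0.0268% at 100 to 500 kb. H3K27ac alone was found on 0.377% of positions at 10 to 20 kb, 0.377% at 20 to 50 kb and 0.323% at 50 to 100 kb, before it dropped to 0.156% at 100 to 500 kb. Of the 9734 distal trivalent positions, 3121 lay at 10 to 20 kb, 3881 at 20 to 50 kb, 1571 at 50 to 100 kb, 1092 at 100 to 500 kb and 69 beyond.

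**Figure D1:**
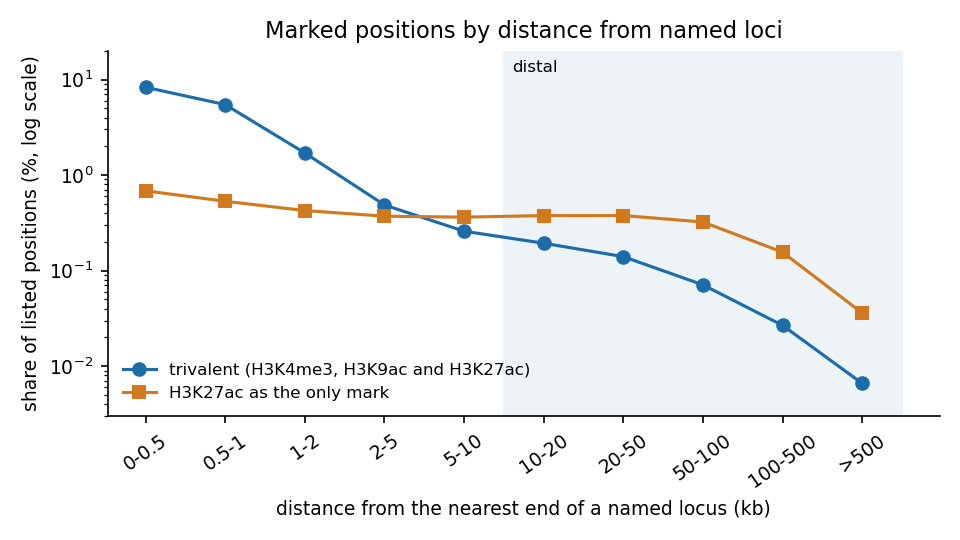
Share of listed nucleosome positions (%, log axis) that were trivalent (circles) or had H3K27ac as their only mark (squares), by distance from the nearest end of a named locus in kb; the shaded bins are distal. The trivalent share fell from 0.194% at 10 to 20 kb to 0.0710% at 50 to 100 kb, while the share with H3K27ac alone went from 0.377% to 0.323%.

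The make-up of marked chromatin differed between both zones. Trivalent positions made up 80.4% (79.9 to 80.8) of all H3K27ac positions within 2 kb of a named end and 20.7% (20.3 to 21.1) of distal ones. For H3K9ac the shares were 66.6% and 40.0%. H3K4me3 differed least, with 52.8% (52.3 to 53.2) near the ends and 45.0% (44.3 to 45.7) in the distal zone. H3K27ac alone was the state of 30408 distal positions, or 26.8% (26.6 to 27.1) of the distal positions with any mark, against 5.25% within 2 kb of a named end. The trivalent state made up 8.58% of marked positions in the distal zone and 43.8% within 2 kb.

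Most distal trivalent positions lay inside named loci, and the kind of locus bears on what distal means. Inside a named locus were 7342 of them, or 75.4% (74.6 to 76.3), against a background of 42.6% of all distal positions and 61.4% of distal positions with H3K27ac alone. The expression table merges overlapping transcripts, so that distinct loci never overlap and 36.0% of its named entries share their coordinates with another entry. A listed locus may reach beyond the main transcript of its gene, whose start then lies inside. Gene starts inside a merged locus cannot be read from the table, and neither can the start of a shorter transcript of the same gene. Loci with 1 entry and 1 symbol are therefore called own loci, and the other named loci shared loci, a split made after the table had been seen. Of the distal trivalent positions, 5899 (60.6%) were in shared loci, 1443 (14.8%) in own loci, 695 (7.14%) in loci without a symbol and 1697 (17.4%) outside every locus. All distal positions were split otherwise, with 17.0% in shared loci, 25.6% in own loci, 1.64% in unnamed loci and 55.8% outside.

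The density of the trivalent state followed the same division. In shared loci 0.296% of distal positions were trivalent (0.288 to 0.304), in unnamed loci 0.363% (0.336 to 0.391), in own loci 0.0482% (0.0457 to 0.0507) and outside every locus 0.0260% (0.0248 to 0.0272). H3K27ac alone varied less, with 0.415% in shared, 0.475% in unnamed and 0.347% in own loci and 0.166% outside. Within shared loci, the trivalent share was 0.235% where 2 entries were merged, 0.348% with 3 to 4 entries, 0.405% with 5 to 9 and 0.740% (0.620 to 0.876) with 10 or more, the last over 14 loci. Loci with 1 entry and several symbols stood at 0.449%. H3K27ac alone stood at 0.395% with 2 entries, 0.414% with 3 to 4, 0.553% with 5 to 9 and 0.456% with 10 or more. How many trivalent positions of shared loci lie at a hidden gene start was not tested.

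Distal trivalent positions occurred in runs. Joined where successive starts were at most 1000 bp apart, they formed 3431 stretches with a median of 2 members, a 90th percentile of 6 and a maximum of 13. A stretch is assigned to a locus by its first position. Stretches with 1 member made up 34.1% (32.5 to 35.7), and 1020 stretches, 29.7% (28.2 to 31.3), held 4 or more. Trivalent stretches that reached within 2 kb of a named end had a median of 3 and only 18.0% (17.2 to 18.9) with 1 member, whereas 49.6% (48.7 to 50.4) of distal stretches of H3K27ac alone had 1. The share of distal trivalent stretches with 1 member was 21.96% in shared loci, 28.4% in unnamed loci, 41.5% in own loci and 53.8% (50.4 to 57.0) outside every locus. Of the stretches with 4 or more members, 718 of 1020 were in shared loci and 106 outside every locus.

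**Figure D2:**
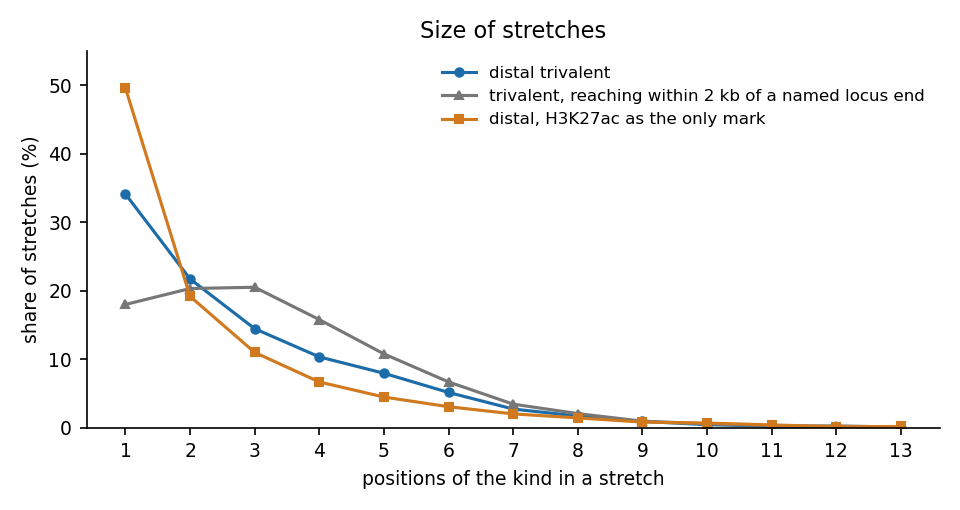
Share of stretches (%) by the number of positions of the kind they hold, for distal trivalent positions (circles), trivalent stretches that reach within 2 kb of a named locus end (triangles) and distal positions with H3K27ac alone (squares). Distal trivalent stretches, with 34.1% at 1 member, lie between those at named ends (18.0%) and those of H3K27ac alone (49.6%).

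Inside stretches of 2 or more members, 10.9% of the 9611 listed positions were not trivalent, against 9.003% in stretches at named ends. These gaps were mostly partial forms of the same code, and of the 1047 positions 211 had H3K4me3 and H3K9ac, 203 had H3K4me3 and H3K27ac, 199 had H3K4me3 alone and 232 had no mark. No gap lay in 1610 stretches, or 71.2%. An H3K27me3 position lay within 5 kb of 60 distal trivalent stretches (1.75%) and an H3K9me3 position within 5 kb of 99 (2.89%). For stretches at named ends the shares were 2.47% and 2.57%, and for distal stretches of H3K27ac alone 1.24% and 4.26%. Few stretches of any of these kinds thus had a repressive mark nearby. A position with H3K27ac alone was found within 5 kb of 39.8% (38.1 to 41.4) of distal trivalent stretches and of 21.4% (20.5 to 22.3) of those at named ends. A position with H3K4me3 alone was found within 5 kb of 53.0% (51.3 to 54.7) of distal trivalent stretches, of 69.1% of those at named ends and of 6.71% of distal stretches of H3K27ac alone.

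The edges of the stretches were graded. Because a stretch takes in every trivalent position within 1000 bp, the first position outside is almost never trivalent (1.33% of distal and 0.876% of near cases), and since most H3K27ac positions near named ends are trivalent, a lower H3K27ac share on their flanks is partly built into the definition. On the first listed position outside a distal stretch H3K4me3 was present in 42.6% of cases, H3K9ac in 30.7% and H3K27ac in 26.6%. At stretches near named ends the order was the same but the range wider, with H3K4me3 in 55.3%, H3K9ac in 34.3% and H3K27ac in 13.6%. By the fourth position H3K27ac was the most frequent mark outside distal stretches, at 8.63% against 6.25% for H3K4me3, and at the tenth it was on 2.23% against 1.53%. Outside stretches near named ends H3K4me3 still led at the fourth position, with 7.30% against 2.86%, and by the tenth it was on 1.14% against 1.22% for H3K27ac. Between classes of distal stretch, the first flanking position had H3K4me3 in 35.6% (32.9 to 38.4) and H3K27ac in 36.4% (33.6 to 39.2) in own loci, and in 29.99% (27.9 to 32.2) and 33.3% (31.1 to 35.5) outside every locus. In both classes the 2 intervals overlap, so that the lead of H3K4me3 at the first position over all distal stretches was not seen there. Stretches of 4 or more members were closer to those at named ends. Their first flanking positions had H3K4me3 in 49.0% and H3K27ac in 18.7%, against 51.0% and 13.7% for stretches of that size near named ends. H3K27me3 was on 0.0146% and H3K9me3 on 0.248% of the first flanking positions of all distal stretches, against 0.0248% and 0.236% near named ends. Over all 14217405 listed positions, the lists hold 26271 entries for H3K27me3 and 34534 for H3K9me3.

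**Figure D3:**
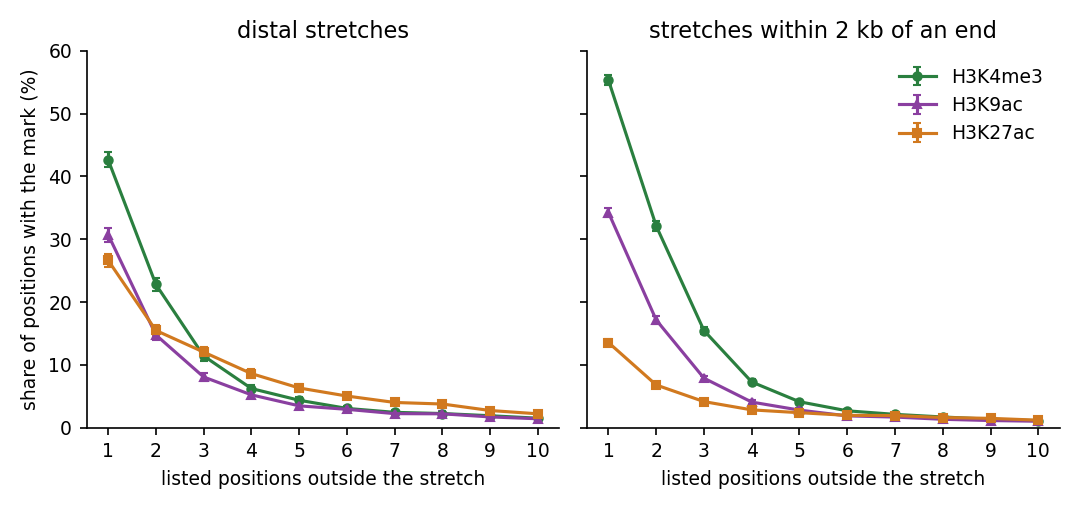
Share of positions (%) with H3K4me3 (circles), H3K9ac (triangles) and H3K27ac (squares) on the first to the tenth listed position outside trivalent stretches, both sides pooled, for distal stretches (left) and stretches within 2 kb of a named locus end (right); bars are exact 95% intervals. H3K27ac was on 26.6% of first positions outside distal stretches and on 13.6% near named ends.

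The next listed nucleosome started a median of 205 bp after the start of a distal trivalent position (10th percentile 128 bp, 90th 428 bp). For all distal positions the median was 180 bp and for distal positions with H3K27ac alone also 180 bp. Of distal trivalent positions 24.5% had their next neighbour more than 300 bp away, against 9.17% of all distal positions and 10.4% of those with H3K27ac alone. An overlap with the next listed position was also less frequent, at 14.4% against 23.3% and 22.9%. Trivalent positions within 2 kb of a named end resembled the distal ones, with a median of 213 bp and 28.4% over 300 bp. Successive members of a distal stretch started a median of 210 bp apart.

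Distal trivalent positions were densest on chromosome 19, at 290.7 per 100000 distal positions, then on chromosomes 17 (197.1), 22 (189.3) and 16 (174.5). They were sparsest on chromosomes 4 (42.3), X (36.8) and Y (6.09, from 3 positions). Over chromosomes 1 to 22 and X, the order followed that of trivalent positions within 10 kb of named ends (Spearman's rank correlation 0.781, n = 23) and that of distal H3K27ac alone (rank correlation 0.786). Chromosomes share 1 library per mark and differ in gene density and base composition, so these values are descriptions.

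Named genes with a distal trivalent position inside their locus were expressed more often than other long genes. Of the 3452 named entries longer than 20 kb with such a position, 2608 had a mean FPKM of at least 1, or 75.6% (74.1 to 77.0), against 53.9% (53.0 to 54.9) of the 11014 without, and 59.1% of all named entries of that length. In own loci the shares were 86.3% (82.9 to 89.3) of 483 with a member and 56.1% (54.9 to 57.3) of 6687 without, with 58.2% over all of them. The median FPKM was 7.91 with a member and 2.75 without. The share rose with the number of members, from 79.2% (71.95 to 85.3) with 1 to 86.2% with 2 to 3, 93.9% with 4 to 6 and 95.2% (83.8 to 99.4) with 7 or more.

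The difference was present at each locus length and was widest in the longest loci. At 20 to 50 kb, 76.7% (66.6 to 84.9) of own loci with a member and 59.2% of those without reached an FPKM of 1. At 50 to 100 kb the shares were 85.0% and 59.0%, at 100 to 200 kb 90.7% and 56.7%, and above 200 kb 89.1% (81.3 to 94.4) and 34.3% (30.8 to 38.0). Loci longer than 50 kb held a member more often than shorter ones, with 2.81% of own loci at 20 to 50 kb, 6.29% at 50 to 100 kb, 13.6% at 100 to 200 kb and 12.6% above 200 kb.

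The relation was set against the trivalent nucleosomes at the listed ends of the locus. Own loci with a trivalent position within 2 kb of either end were expressed in 96.8% (94.0 to 98.5) of cases with a distal member inside and in 94.7% (93.9 to 95.4) without one. Among own loci with no trivalent position at either end, 143 of 200 with a distal member were expressed, or 71.5% (64.7 to 77.6), but only 454 of 3204 without one, or 14.2% (12.98 to 15.4). Hence 200 of the 483 own loci with a member had distal trivalent nucleosomes inside and none within 2 kb of a listed end. Trivalent positions 2 to 10 kb from an end counted neither as members nor as lying at an end. A listed end also need not be the start of the gene.

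**Figure D4:**
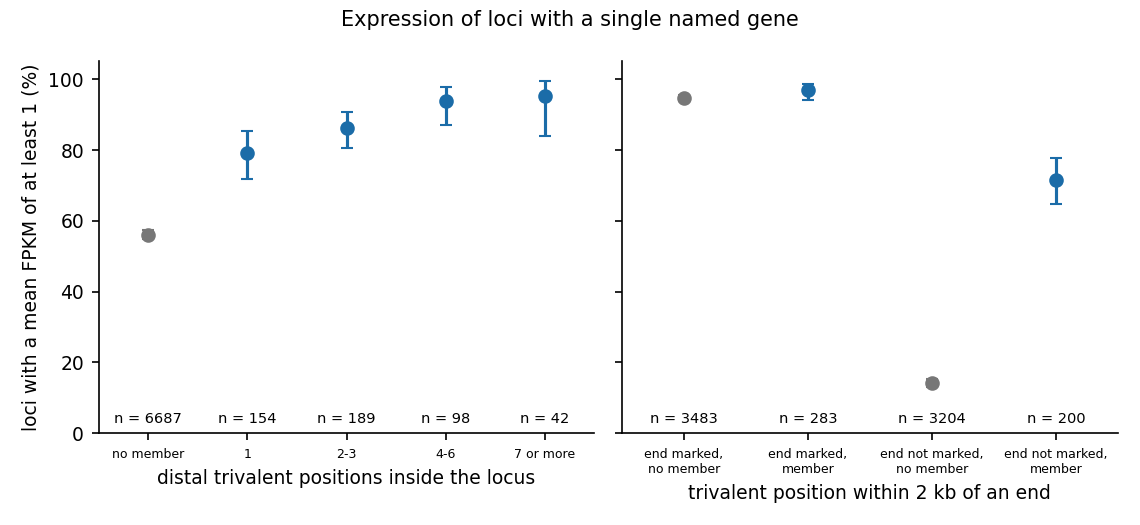
Share of own loci longer than 20 kb with a mean FPKM of at least 1 (%, with exact 95% intervals and the number of loci), by the number of distal trivalent positions inside (left) and by whether a trivalent position lies within 2 kb of an end (right). Without one at an end, 71.5% of loci with a distal member and 14.2% of loci without were expressed.

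Distal trivalent positions leaned towards the inferred start of the locus, which need not be the start of the gene. The table gives no strand, and the strand was inferred from its locus numbers, which run up each chromosome first for one strand and then for the other. With it, 51.8% (50.6 to 52.9) of own loci longer than 20 kb had a trivalent position within 2 kb of the inferred start and 2.36% (2.02 to 2.74) within 2 kb of the other end. Of the 1443 members in own loci, 930 were nearer to the start than to the other end, or 64.4% (61.9 to 66.9), against 49.9% of all distal positions in own loci and 52.7% (51.8 to 53.7) of those with H3K27ac alone. Counted by stretch, the share was 63.8% (59.7 to 67.7) of 588, against 56.4% (54.96 to 57.9) for stretches of H3K27ac alone. The members lay a median of 43156 bp from the start and 73586 bp from the other end. For stretches outside named loci whose nearest named locus was an own locus, the nearest end was the start in 55.6% (52.2 to 58.9) of 853, and in 55.4% (53.7 to 57.1) of such stretches of H3K27ac alone, so that no difference between the kinds was detectable there. Of all distal positions outside named loci 50.6% (50.5 to 50.6) had a start as the nearest end, below both intervals.

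The stretch with the most members lay in the own locus of GREB1, an oestrogen-regulated gene, at chr2:11679836-11682728, with 13 members among 16 listed positions. It was 59.3 kb from the inferred start, and GREB1 was expressed, with an FPKM of 19.5 and 18.6 in the runs. LPHN2, a gene of the latrophilin receptors (now also called adhesion G protein-coupled receptors), held 12 members without a gap at chr1:82266096-82268941, 100.9 kb from the inferred start. No trivalent position lay within 2 kb of either listed end of this locus. A listed end need not be the start of the gene, and whether the GREB1 or the LPHN2 stretch lies at a gene start was not tested. LPHN2 had an FPKM of 6.56 and 5.87. Among shared loci, that of SPTBN1, which codes for a spectrin of the membrane skeleton, held a stretch of 12 at chr2:54784953-54787611. Stretches of 11 were in the shared loci of MLL5 and SRPK2 at chr7:104652586-104655351, of CAB39L, PHF11 and SETDB2 at chr13:50017449-50020081, and of the zinc finger gene RREB1 at chr6:7107191-7109746. As 8 stretches held 11 members, those with the longest span are named.

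The loci with the most members in total were long merged ones. A locus of 389024 bp on chromosome 16, which merges 14 entries from AFG3L1P to ZNF276 and includes TUBB3, MC1R and FANCA, held 40 members in 11 stretches. The GINS2 and KIAA0182 locus had 28 in 9 stretches, and the locus of C5orf39 and its neighbours 23 in 4. The ASAP2, ADAM17, CPSF3, IAH1 and ITGB1BP1 locus held 22. JMJD1C with REEP3 held 20, as did the locus of MKLN1 with MIR29A and MIR29B1, SEPT9 and the RTEL1 locus held 19 each, and HEBP2 with NHSL1 held 17. The most highly expressed entry of each of these loci had an FPKM between 3.09 and 131.3.

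Own loci with the most members were chosen for description after the values had been seen. Distances are from the inferred start of the listed locus, and whether a stretch lies at the main start of its gene was not tested. RHOU, which codes for a small GTPase, held 14 members in 3 stretches, 2 of them at 10.4 kb, 7 at 22.1 kb and 5 at 110.2 kb from the start, and had an FPKM of 20.1 in both runs. SMAD6, an inhibitor of BMP signalling, also held 14, with 9 at 31.1 kb, 3 at 59.1 kb and 2 at 100.5 kb, at an FPKM of 5.06 and 4.24. STARD13, which codes for a GTPase-activating protein, held 13 in 4 stretches between 65.5 and 392.0 kb. The transcription factor gene NFIB held 12 between 76.1 and 86.0 kb, at an FPKM of only 0.836 and 0.852. None of the 6 loci with the most members (RHOU, SMAD6, GREB1, STARD13, LPHN2 and NFIB) had a trivalent position within 2 kb of an end, although KIAA1671, RERE and CHD9, with 10, 10 and 9 members, did. Further trivalent positions that were not distal, inside each of these loci or close to its ends, lay just past this 2 kb limit in some. There were 7 inside GREB1, at 2.27 to 3.35 kb from the inferred start. Another 3 stood before the inferred start of STARD13 (-3.40 to -2.38 kb), 1 before that of RHOU (-3.76 kb), and 0 for SMAD6, LPHN2 and NFIB. Over the same range, positions with H3K27ac alone numbered 65 for STARD13, 14 for SMAD6 and 12 for GREB1, and were absent for LPHN2, NFIB and RHOU. Some of those counted for STARD13 lay outside the locus, before its inferred start or beyond its other end.

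Highly expressed own loci with a member and no trivalent position at their ends were led by TF, the gene of the iron carrier transferrin. Its locus of 66002 bp (chr3:133431848-133497850) held 7 members, 1 at 29.5 kb and 6 at chr3:133464746-133466316, which is 32.9 to 34.5 kb from the inferred start. Run 1 gave TF 1005 FPKM and run 2 gave 1006. The next were FDFT1, which makes squalene for cholesterol synthesis, with 2 members and an FPKM of 218.7, and the aldo-keto reductase genes AKR1C2, with 2 and 172.0, and AKR1C3, with 7 and 146.7. Both belong to a family of closely similar copies, so their FPKM and marks are uncertain where reads could be shared. The actin-severing protein gene GSN held 5 at an FPKM of 119.4, and the asparagine synthetase gene ASNS 2 at 115.2. Whether these positions lie at the start of the main transcript of the same gene, or of a shorter one, was not tested.

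**Figure D5:**
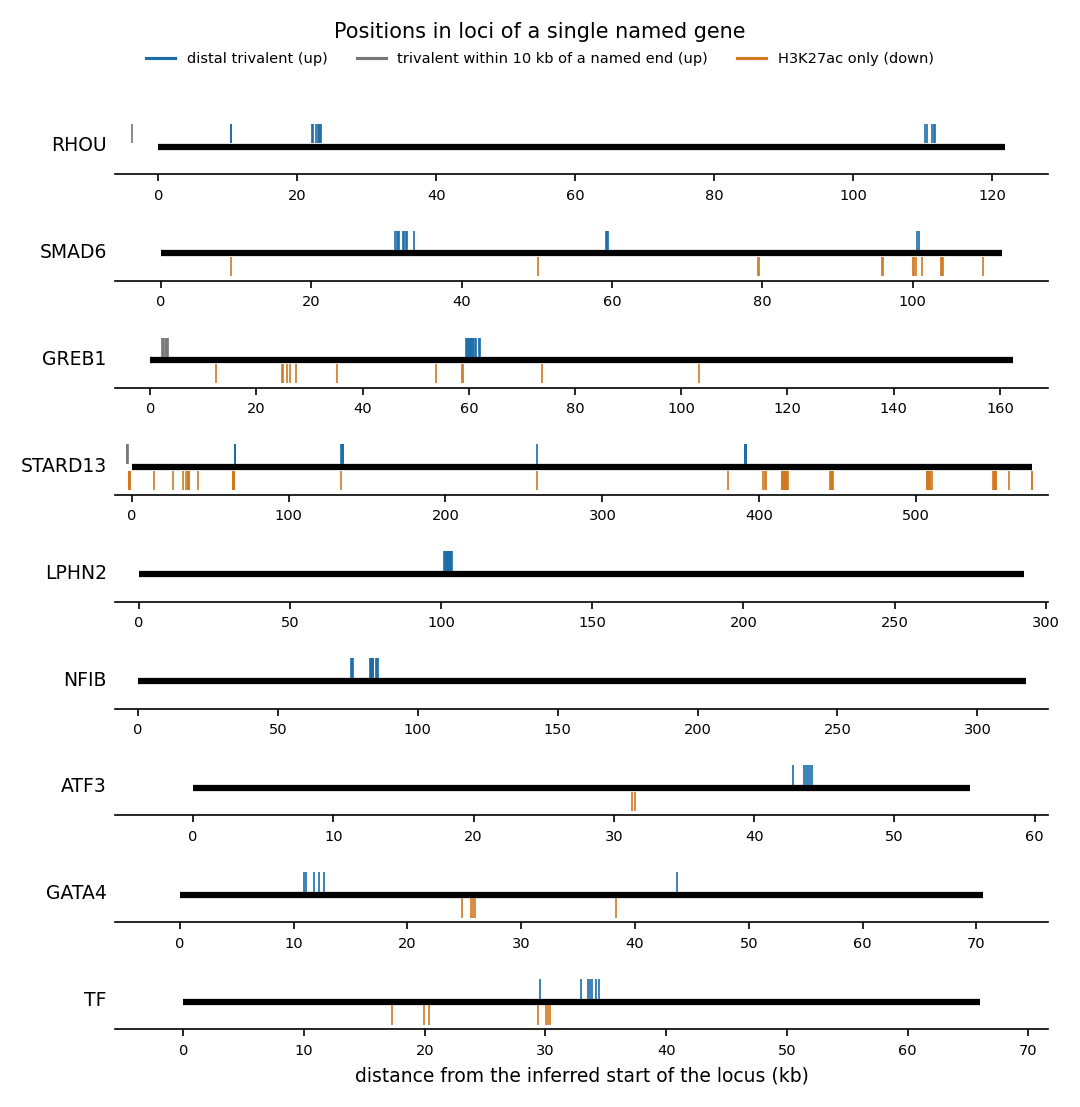
Position of distal trivalent nucleosomes (blue, up), of trivalent nucleosomes within 10 kb of a named end (grey, up) and of nucleosomes with H3K27ac alone (orange, down) along 9 own loci, in kb from the inferred start; the black bar is the locus. The stretches with the most members in TF, ATF3 and GATA4 start at 32.9, 42.7 and 10.9 kb, and none of the 9 loci has a trivalent nucleosome within 2 kb of an end. Those drawn in grey for GREB1, STARD13 and RHOU lie between 2 and 10 kb from the inferred start.

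Gene lists of the liver and of the early stress response were read against all symbols of the table. Over all 21913 symbols, 16.7% had such a position inside their locus and 40.3% inside or within 100 kb, and the second share was 52.2% for symbols at an FPKM of at least 1 and 26.1% for those below. Of 24 hepatocyte transcription factor genes, of which 22 were expressed, 14 (58.3%) had a member within that range and 6 inside. Of 24 plasma protein genes, all expressed, 9 (37.5%) had one in range and 1, TF, inside. These lists were chosen with earlier results of the same data known, members are few, and expressed genes differ in locus length, so the counts are descriptions.

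GATA4, which codes for a zinc finger factor of the endoderm and heart, held 6 members in its own locus, 5 of them 10.9 to 12.8 kb from the inferred start, at 12.2 and 11.5 FPKM. HNF4A, a nuclear receptor central to liver expression that is known to be read from alternative promoters, held 6 in a shared locus, in a stretch of 2 and one of 4 at chr20:43029926-43030581, and had an FPKM of 66.6 and 62.7. PROX1, a homeobox factor of liver and lymphatic vessels, held 10, of which 9 were at chr1:214160776-214163351, at an FPKM of 21.7 and 21.5. CEBPB, a leucine zipper factor of the acute phase, had no member inside its short locus but 11 within 100 kb, of which 6 stood at chr20:48788221-48789506 in an unnamed locus 17869 bp away. CEBPA, its relative, had 4 in stretches of 2 at 50516 and 58158 bp, outside every locus. ONECUT1 had a stretch of 5 at 70587 bp inside KIAA1370, and CREB3L3 had 5 in range. Further factors in range, namely CEBPD, FOXA2, HNF4G, NR0B2 and NR1I3, had between 2 and 5.

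Among plasma protein genes, SERPINC1, which codes for antithrombin, had 12 members within 100 kb, in stretches of 9 and 3 that both lay in a neighbouring shared locus. ALB and AFP, albumin and its fetal counterpart, lie side by side and shared a stretch of 3 at chr4:74210231-74211496, 58193 bp from ALB and outside every locus. Their FPKM was 9933 and 10088 for ALB, and 3732 and 3864 for AFP. APOA2 had 5 in range, AHSG 2, and AMBP, APOB and TTR 1 each, all outside the loci themselves. SERPINC1 stood at a mean FPKM of 152.6, far below ALB, although it had the most members in range of the list.

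Immediate early and AP-1 genes, which respond to growth factors and stress within minutes, had a member in range in 10 of 14 (71.4%). ATF3, a stress-induced factor known to have alternative promoters, held 6 in its own locus at chr1:212781396-212782889, 42.7 to 44.2 kb from the inferred start, and had no trivalent position at its ends. ATF3 stood at 4.58 and 4.37 FPKM. FOSB lies in a locus merged with ERCC1, CD3EAP and PPP1R13L that held 16, although FOSB itself had an FPKM of 0.369 and 0.157. EGR1 had a stretch of 4 at 22992 bp, and JUN and JUND had 4 each, IER2 and IER3 7 each, DUSP1 and KLF6 3 each, and FOS 1. A member in range may lie inside another locus or nearer to one. The EGR1 stretch was nearest to ETF1. For JUN, JUND, IER2 and IER3, some or all stretches lay inside other named loci, such as PDE4C for JUND and NACC1 for IER2. Those of FOS and KLF6 were nearest to these genes themselves. In all, the range of the list held 56 members in 27 stretches.

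Genes of 4 further families were counted in the same way. Cytosolic ribosomal protein genes, nearly all expressed, had a member in range in 35 of 79 (44.3%) and inside in 8. Potassium channel genes had one in range in 24 of 98 (24.5%), and olfactory receptor genes, which code for the odour sensors of the nose and of which 1 of 373 reached an FPKM of 1, in 31 (8.31%) and inside in none. HOX genes, which pattern the body axis and lie in clusters, had one in range in 30 of 39 (76.9%), but these 30 shared only 5 stretches with 10 members. The HOXA cluster had 6, of which 5 stood at chr7:27161656-27162896 in the locus merging HOXA2, HOXA3 and HOXA4, where HOXA3 stood at 3.78 and 3.58 FPKM. HOXC10, with 5 other HOXC genes in its locus, held 2 at an FPKM of 0.327.

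Outside named loci, 1122 stretches were found. For 814 of them the nearest named locus was expressed, or 72.5% (69.8 to 75.1), against 39.5% of the nearest loci of all distal positions outside named loci. With each nearest locus counted once, 643 of 903 were expressed, or 71.2% (68.1 to 74.1), against 53.7% of all distinct named loci. A merged locus was counted by its most highly expressed entry. For H3K27ac alone the share was 70.2% (68.8 to 71.5) by stretch and 68.0% (65.9 to 70.0) by locus, and in both counts the intervals overlap. By distance the share for trivalent stretches was 76.2% at 10 to 20 kb, 76.8% at 20 to 50 kb, 63.2% (55.1 to 70.8) at 50 to 100 kb and 62.6% (55.002 to 69.8) beyond. The stretch of 10 at chr1:105008108-105010873 was the largest outside every locus, 337252 bp from the nearest named end, that of LOC100129138 (FPKM 0.0835). Stretches of 9 lay at chr6:114662366-114664746, 225093 bp from the heparan sulfate sulfotransferase gene HS3ST5 (FPKM 0.740), at chr2:43152206-43154286, 121351 bp from HAAO (FPKM 22.1), and at chr12:69724781-69726643, 15560 bp from the lysozyme gene LYZ (FPKM 1173). The stretches farthest from named ends were 1 of 3 members at chr14:84105306-84106021, 1890536 bp from FLRT2, and 1 of 6 at chr1:106174289-106175421, 1420561 bp from PRMT6. Next came positions standing alone on chromosome Y, 1248998 bp from GYG2P1, on chromosome 1 in an unnamed locus, and on chromosome 6, 872370 bp from MIR3668.

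For 17 of these stretches the nearest named locus held only microRNA genes. MicroRNAs are short RNAs that silence messages through a seed at bases 2 to 8, and their genes are cut from longer transcripts whose starts the table need not list. A stretch of 2 lay 22528 bp from MIR221 and MIR222, one of 2 lay 10161 bp from MIR193A, one of 2 lay 10871 bp from MIR23A, and a position alone lay 55474 bp from MIR148A, a microRNA abundant in liver. The mature sequences of the guide strands of these 5 genes, chosen for description after the values had been seen, are given from RefSeq (GRCh38.p14) with the seed in capitals. They belong to genes whose locus was the nearest named one to such a stretch, 10161 to 55474 bp away.
hsa-miR-221-3p: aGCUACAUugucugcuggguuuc
hsa-miR-222-3p: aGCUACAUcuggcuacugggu
hsa-miR-193a-3p: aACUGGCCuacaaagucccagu
hsa-miR-23a-3p: aUCACAUUgccagggauuucc
hsa-miR-148a-3p: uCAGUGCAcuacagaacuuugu
The neighbours miR-221-3p and miR-222-3p share their seed, and the other 3 seeds differ from it and from each other. Loci of microRNA genes only were the nearest for 1.52% of the stretches and make up 1.73% of distinct named loci. Their FPKM, 0 for MIR193A and MIR23A and 1.55 for MIR221 and MIR222, says nothing of the mature microRNA, which this library does not measure.

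Unnamed loci with a distal trivalent position were expressed more often than those without. At an FPKM of at least 1 were 88 of 291, or 30.2% (25.02 to 35.9), against 137 of 3331 without a member, or 4.11% (3.46 to 4.84), and 6.21% of all unnamed entries with a distal position. The members gathered at the ends of these loci, with 579 of 695 within 2 kb of an unnamed end, or 83.3% (80.3 to 86.0), against 17.4% of all distal positions in unnamed loci and 38.9% (35.7 to 42.2) of those with H3K27ac alone. Members outside every locus were within 2 kb of an unnamed end in 187 cases, or 11.02% (9.57 to 12.6), against 0.770% of distal positions and 4.06% of those with H3K27ac alone.

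Among the largest stretches in unnamed loci was one of 12 at chr2:8765806-8767951, 51474 bp from ID2, an inhibitor of helix-loop-helix factors with an FPKM of 209.4. The unnamed locus had an FPKM of 2.15. In unnamed loci near RUNDC2C and NKD1 stood 11 members each, the latter at an FPKM of 9.24. By expression, the leading unnamed loci with a member were a locus on chromosome 1 (chr1:142691951-142713710) with 1 member and an FPKM of 56.4, a locus of 116772 bp near ZNF503 with 8 members and 50.04, one near KLHDC2 with 2 and 39.8, one near PASD1 with 3 and 27.9, and one near SUB1 with 5 and 27.5. The value near SUB1 differed between the runs, at 19.9 and 35.1.

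RefSeq (GRCh38.p14) lists genes that the expression table does not name, and by gene order alone 1003 of the 1122 stretches could be placed between the same neighbours. For 734 of them, or 73.2% (70.3 to 75.9), at least 1 such gene in between was a long noncoding RNA, against 75.8% (74.4 to 77.1) for stretches of H3K27ac alone, with overlapping intervals. Counted once per interval between neighbours the order was the other way, at 69.3% (65.8 to 72.6) of 752 against 65.5% (62.99 to 67.9) of 1497, again with overlapping intervals. In 2 examples chosen after the values had been seen, between C2orf46 and ID2 it lists LINC01814 and ID2-AS1, and beside CHD2, where a stretch of 8 stood at chr15:93351341-93353401, it lists CHASERR, a noncoding RNA that restrains CHD2. Where in the interval such a gene lies relative to the stretch was not tested, since the builds differ.

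The limit of 10 kb cut through a continuous range. The members nearest to it lay 10003 to 10010 bp from a named end, at CDHR2, SLC38A6, MPV17L, EEF2K and KDM6B, and the trivalent positions just outside the rule lay 9994 to 10000 bp away, at PTRH2, HNRNPH1, FOSB, HEATR2 and FAM125B. Of the 3431 stretches, 66, or 1.92% (1.49 to 2.44), directly touched a trivalent position within 10 kb. Only the listed position next to each end was looked at, so stretches cut across a non-trivalent position were not counted.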

How the data were processed

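The authors aligned the MNase-Seq and ChIP-Seq reads with BWA to hg19 (per the labels), called positions with DANPOS and peaks at these positions with NUCLIZE, with limits of 0.01 on P and on the false discovery rate and of 4-fold on enrichment, and deposited coordinates with identifiers but no counts or signal. The RNA-Seq table that the authors deposited holds FPKM, in 2 value columns and a Cuffdiff layout, although the labels name TopHat2 2.1.0, Bowtie, HOMER 4.7 and edgeR. Their fold changes and p-values between the columns were not used. Whether the columns are separate cultures is not given in the sources used here.

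Peaks were matched to positions by identifier, and loci and mean FPKM were taken from the RNA-Seq table. A position spans 140 bp from start to end, peaks reach 3 bp further on each side, and coordinates are as listed. Members and lists were chosen with earlier results of these data known. Genes were named by fixed rules: the 10 stretches and 10 named loci with the most members, the 5 most expressed unnamed loci with a member, list genes with a member inside or within 100 kb, the 5 farthest stretches and the 5 positions on each side of 10 kb. The own loci, the microRNAs and the strand were added after the values were seen. RefSeq neighbours were matched by symbol or older symbol. Where the interval in GRCh38.p14 was longer than 1.5 times that in hg19 plus 50000 bp, the stretch was left out. Sequence of the stretches was planned but needs an hg19 genome and was not used here. A few loci that the rules name are not reported here. Counting steps were tested on simulated data. Alternatives were other distances, joins, matches, chromosomes and FPKM limits. Python 3.11.15, numpy 2.4.6, pandas 2.3.3 and scipy 1.17.1 were used.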

Additional observations from a re-analysis of the deposited data

How the results depend on the processing

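The 10 summary results were computed under 93 alternatives in all, of which 58 left the value inside its 95% interval (for counts, within 1.5 times, and for the median of 2 members per stretch, equal) and 35 moved it. No paired analysis was possible because there is 1 sample per assay and no test. With a distal limit of 50 kb there were 2732 members in 987 stretches, 74.0% of members in named loci, 38.1% of stretches with 1 member, H3K4me3 on 39.2% and H3K27ac on 30.9% of first flanking positions, and 69.9% of host, 62.8% of nearest and 37.2% of unnamed loci expressed. At 20 kb, 76.4% of members were in named loci and H3K27ac was on 28.0% of first flanking positions. Keeping 10 kb from the ends of all loci gave 84.5% in named loci, H3K4me3 on 43.9% of flanks and 20% of unnamed loci expressed, which is 4 of 20 (5.73 to 43.7). Matching by any overlap gave 74.2% in named loci, 26.2% of stretches with 1 member and H3K4me3 on 40.3% of flanks. Joining within 500 bp gave 41.3% with 1 member, and H3K4me3 on 48.2% and H3K27ac on 33.2% of flanks.

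Leaving out members in shared loci, an alternative chosen after seeing the data, left 3835 members in 1710 stretches, with 37.6% of members in named loci, 46.3% of stretches with 1 member, H3K4me3 on 32.7% and H3K27ac on 34.1% of first flanking positions, and 86.3% of host loci expressed. With these left out the intervals of both marks at the edge overlapped (31.1 to 34.3 and 32.5 to 35.7), so that neither led. At an FPKM limit of 0.1, 87.3% of host, 80.7% of nearest and 84.9% of unnamed loci were expressed, and at 5 the shares were 56.9%, 59.8% and 6.19%. Among loci above an FPKM of 0, 81.7% of host and 80.7% of nearest loci were expressed. Own loci with a member led those without at each limit, with 94.4% against 66.9% at 0.1 and 64.4% against 43.0% at 5, as did unnamed loci, with 84.9% against 27.5% and 6.19% against 0.931%. The sequence of the stretches was not run, and no depth is known for any list, so rare or weakly enriched positions may be missing from them.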
